A study of Mus musculus with 8 samples.

Results

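The 40 genes described here carry BMP, activin and TGF-beta signals. They were picked by symbol from a list of 14 ligands, 5 extracellular antagonists, 10 receptors, 7 Smads and 4 Id genes, and all 40 were present, out of 18904 genes in the Meis1 table and 17348 in the Prep1 table. Each library was made from mRNA of whole mouse embryos (strain C57BL/6, embryonic day 11.5). For Meis1, 3 libraries labelled knockout (KO) stood against 3 of wild-type (WT) littermates, and for Prep1, the gene listed as Pknox1, 1 library labelled hypomorphic stood against 1 of WT littermates. The series asks what losing each of these TALE homeodomain transcription factors does to the transcriptome. Neither the structure of the alleles nor the number of embryos in a library is given in the sources used here, so p-values measure the spread between these libraries, which may in part be technical.

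BMPs, growth and differentiation factors, activins and TGF-betas are secreted dimers that bind pairs of receptor serine/threonine kinases. The receptors phosphorylate Smad1 and Smad5 on the BMP side, or Smad2 and Smad3 on the activin and TGF-beta side. These join Smad4 and enter the nucleus, where the Id genes are among the best known BMP targets, while Smad6 and Smad7 damp the signal. In midgestation embryos the pathway patterns the limb, the heart, the neural tube and the skeleton.

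The deposited Meis1 table holds group means, and the whole counts of each library were worked back from them. Letters a, b and c follow size within a genotype, and nothing links a letter to a labelled sample. The KO libraries held 4248755 (a), 4725672 (b) and 4826482 (c) counts, the WT libraries 4286187 (a), 4541229 (b) and 6230893 (c), the Prep1 hypomorph 5893401 and its WT 4000984. KO a stood apart: the summed level of 15 genes induced by low oxygen was 7917 TMM-scaled CPM (counts relative to library size) there, 2162 and 2308 in KO b and c, and 1774 to 2407 in the WT libraries. In 3 cases a KO and a WT library (KO c with WT a, KO c with WT c, KO b with WT b) were closer to each other over all genes than any 2 libraries of 1 genotype. Meis1 itself was at 86.5, 68.1 and 71.0 CPM in KO a, b and c and 92.6, 88.1 and 112.5 CPM in WT a, b and c. With the deleted stretch unknown, this does not check the labels. Pknox1 had 14 counts in the hypomorph and 129 in WT, a log2 ratio of -3.58.

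Promoter sequence was at hand for 28 of the 40 genes, in RefSeq's table for GRCm38.p6, and the 250 bases before each start were searched on both strands for 5 motifs. The table lists 3 starts each for Bmpr1b and Smad5 and 2 for Tgfbr1, and for these as for all genes a match before any listed start was counted. TGACAG, the hexamer bound by Meis and Prep factors, occurred in Bmpr1b and Smad6, 2 of 28 (7.14%), against 18% of 27025 genes. TGATTGAC, a composite site of Pbx with Meis or Prep, occurred in 0 of 28, against 0.799%. GGCGCC, a GC-rich element bound by Smads, occurred in 8 of 28 (28.6%), against 10.8%: Chrd, Grem1, Bmpr1a, Bmpr2, Tgfbr1, Smad5, Id2 and Id4. GTCTAGAC, a palindromic Smad element, occurred in 0 of 28, against 0.2%, and CAGACA, a shorter one, in Bmp5, Bmpr1b, Tgfb2 and Tgfbr1 (14.3%, against 19.3%). The CAGACA match of Bmpr1b lies before another start than the one printed, and the GGCGCC and CAGACA matches of Tgfbr1 lie before different starts. The shares over all genes were not matched for base composition, and whether it plays a part in the GGCGCC share was not tested. No printed match overlaps a match of another of these motifs, and a match is a match of letters only. The upstream sequences with the TALE hexamer, and those of the Id genes with the Smad element, are given below 5′ to 3′ in the gene's direction, with that motif in capitals. Bmpr1b is at chr3:141931589-141931838 (minus strand), Smad6 at chr9:64022060-64022309 (minus), Id2 at chr12:25096093-25096342 (minus) and Id4 at chr13:48260866-48261115 (plus).
Bmpr1b: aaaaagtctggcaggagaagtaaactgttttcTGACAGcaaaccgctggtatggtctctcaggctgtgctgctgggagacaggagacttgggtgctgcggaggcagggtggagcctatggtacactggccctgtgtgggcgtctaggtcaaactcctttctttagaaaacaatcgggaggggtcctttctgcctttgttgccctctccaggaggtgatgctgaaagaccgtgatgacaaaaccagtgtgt
Smad6: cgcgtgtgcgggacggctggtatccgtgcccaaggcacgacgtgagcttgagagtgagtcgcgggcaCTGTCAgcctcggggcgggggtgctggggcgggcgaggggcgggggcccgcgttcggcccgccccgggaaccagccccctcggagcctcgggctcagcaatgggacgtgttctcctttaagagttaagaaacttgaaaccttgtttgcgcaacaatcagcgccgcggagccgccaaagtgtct
Id2: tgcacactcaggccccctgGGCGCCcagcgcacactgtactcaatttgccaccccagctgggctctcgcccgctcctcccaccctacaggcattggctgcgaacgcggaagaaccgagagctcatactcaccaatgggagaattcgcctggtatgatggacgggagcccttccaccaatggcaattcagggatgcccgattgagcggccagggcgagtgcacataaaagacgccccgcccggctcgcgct
Id4: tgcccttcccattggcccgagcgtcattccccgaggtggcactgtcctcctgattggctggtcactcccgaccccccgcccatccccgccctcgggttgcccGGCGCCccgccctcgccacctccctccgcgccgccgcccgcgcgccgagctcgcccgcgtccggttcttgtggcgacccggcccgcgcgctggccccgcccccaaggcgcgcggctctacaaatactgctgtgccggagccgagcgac
The hexamer of Bmpr1b lies 218 to 213 bases before this start. That of Smad6 lies on the opposite strand, 183 to 178 bases before the start, and is therefore printed as its reverse complement.

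Levels were first compared between genes per kilobase of merged exon (GENCODE M21 lengths, which may differ from those behind the deposited estimates, so the scale is approximate). In the Meis1 libraries Id1, Id2, Id3 and the type I BMP receptor Bmpr1a had the highest means. Id3 stood at 64.3 CPM per kb in KO and 66.8 in WT, Id1 at 53.3 in KO and 64.3 in WT, Id2 at 61.5 in KO and 63.3 in WT, and Bmpr1a at 56.99 in KO and 52.5 in WT. Neighbours in this order overlapped over libraries, but in WT Id3 (58.6 to 80.9) stood clear of Bmpr1a (46.9 to 56.8). The co-Smad Smad4 (38.0 in KO, 35.1 in WT), the type I TGF-beta receptor Tgfbr1 (30.6 in KO, 29.1 in WT) and Smad5 (24.1 in KO, 23.5 in WT) followed. Among ligands, Bmp4 (18.9 in KO, 19.2 in WT) and Bmp7 (17.7 in KO, 16.8 in WT) had the highest Meis1 means, and their libraries overlapped. In the Prep1 libraries Gdf11, at 16.3 in the hypomorph and 19.7 in WT, stood above both. Each antagonist was below 5 CPM per kb, from Grem1 (3.29 in KO, 3.62 in WT) down to Chrd (0.901 in KO, 0.889 in WT).

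**Figure D1:**
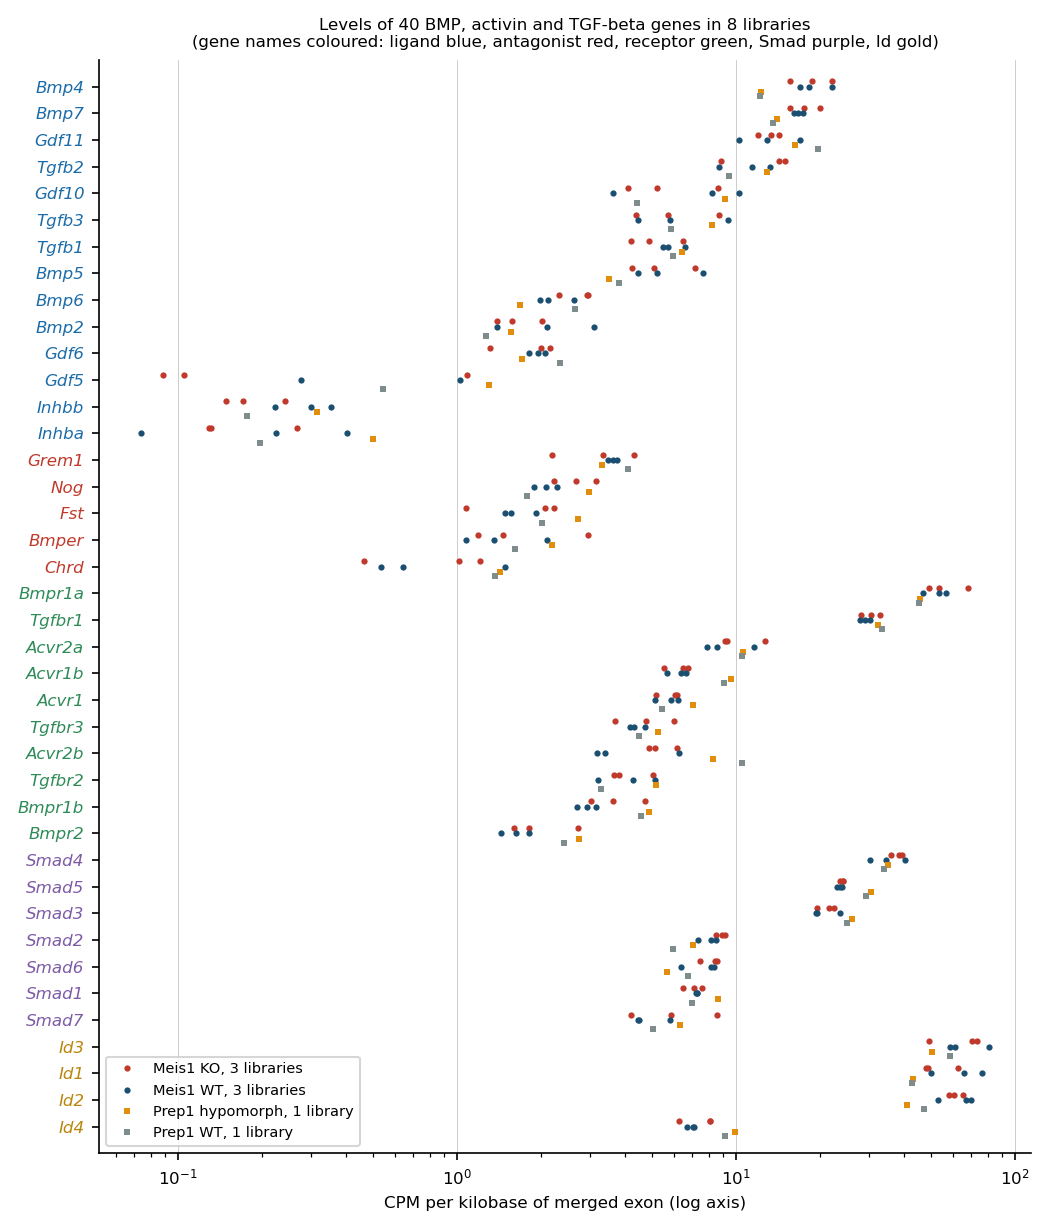
Level of each of the 40 genes in each of the 8 libraries, in CPM per kilobase of merged exon on a log axis; each point is 1 library, with no error bar, and gene names are coloured by role. Id1, Id2, Id3 and Bmpr1a lie at the right, at 52.5 to 66.8 CPM per kb on average in Meis1 WT, the activin subunits Inhba and Inhbb and the ligand Gdf5 at the left; the WT library of Gdf5 without counts is not drawn.

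In the Meis1 comparison, 37 of the 40 genes passed the filter on low counts, and edgeR's quasi-likelihood test, adjusted by Benjamini-Hochberg over all genes, called 0 of the 37 at an FDR of 0.05, against 0.0% of 14438 genes. The adjusted p was 0.9999 for each of the 37 in this edgeR fit, so the log2 differences below are given with their SE alone. At an unadjusted p under 0.05 there were also 0 of 37, against 1.57% of all genes. DESeq2, limma-voom and the authors' deposited table, which over all genes called 1, 0 and 49, likewise called 0 of these genes and gave 0 at an unadjusted p under 0.05, and the authors' lowest unadjusted p among the 40 was 0.149, for Acvr2b. The 3 genes under the filter were ligands with few reads: Inhba, an activin subunit, had 7, 4 and 4 counts in KO and 2, 12 and 9 in WT; Inhbb, its relative, had 3, 3 and 5 in KO and 4, 7 and 8 in WT; and Gdf5, a joint-forming factor, had 1, 12 and 1 in KO and 0, 11 and 4 in WT. Since whole embryos were sequenced, fewer cells of a type and less RNA per cell cannot be told apart for any gene here.

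How small a difference the data could hold varied by gene. The 95% interval of the KO over WT difference lay within 1.5-fold in both directions for 18 of the 37 genes (48.6%), close to the 48.7% of all genes. The median log2 difference of the 37 was 0.05, against -0.0006 for all genes, and its median size was 0.11, against 0.12. The difference was above 0 in 23 of 37 (62.2%), against 49.9% of all genes, and 22 of the 37 changed sign under at least 1 other setting.

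Of the 11 ligands tested, 3 had a difference above 0 and 8 below, with a median of -0.06. Bmp2, a ligand of heart and limb development, had the lowest p among them. It stood at 5.61, 7.17 and 4.95 CPM in KO a, b and c, against 4.97, 11.03 and 7.52 CPM in WT a, b and c, averaging 5.91 ± 1.14 in KO and 7.84 ± 3.04 in WT (SD, n = 3 each). WT b and c were above every KO library, WT a was level with the lowest of them, and the groups overlapped (log2 difference -0.41, SE 0.34). Bmp6, a BMP known for its part in iron balance, leaned the other way. It was at 11.5, 9.07 and 11.6 CPM in KO, against 8.29, 7.79 and 10.2 CPM in WT (0.28, SE 0.24), with KO b below WT c. The other 9 ligands tested lay between -0.30 (Gdf10) and 0.19 (Tgfb2), with Tgfb1 at -0.18, Gdf6 at -0.09, Bmp5 at -0.07, Tgfb3 at -0.06, Bmp4 at -0.02, Gdf11 at -0.01 and Bmp7 at 0.08. The Bmp6 entry overlaps that of Txndc5. The entries Gm16662 (Bmp5), Gm15222 (Bmp4), Gm15557 (Gdf5), Thpo (Chrd), A330033J07Rik (Id4), Gm17110 (Bmpr1a) and Orc4 (Acvr2a) also overlap members. Overlap was taken from gene start and end positions, not from exons. Strand use is not stated, and whether any reads were shared was not examined.

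The antagonists bind ligands outside the cell: Nog, Chrd, Grem1 and Bmper hold BMPs, and Fst holds activins. Their differences ranged from -0.14 to 0.36, with 4 of 5 above 0. Nog had 22, 18 and 22 counts in KO and 15, 18 and 20 in WT, which is 5.36, 3.80 and 4.54 CPM in KO and 3.55, 3.89 and 3.20 CPM in WT. KO b was under WT b, so the groups overlapped (0.36, SE 0.31). Bmper, which can both hold and hand on BMPs, stood at 7.07, 14.35 and 5.78 CPM in KO and 5.21, 10.2 and 6.56 CPM in WT (0.31, SE 0.39). In each genotype library b was the highest, and without KO b the difference was -0.19. Fst (0.10), Chrd (0.05) and Grem1 (-0.14) were nearer to 0, each with overlapping groups.

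The receptors held the smallest p of all 37 genes. Bmpr1b, a type I BMP receptor of cartilage condensations, was at 28.3, 18.1 and 21.7 CPM in KO a, b and c, against 16.1, 17.5 and 18.9 CPM in WT a, b and c. KO a and c were above every WT library and KO b lay between WT b and WT c, and the means were 22.7 ± 5.14 in KO and 17.5 ± 1.39 in WT (SD, n = 3 each; log2 difference 0.37, SE 0.21). Bmpr2, the type II receptor that BMPs share, was at 49.0, 28.9 and 32.8 CPM in KO and 32.7, 26.0 and 29.3 CPM in WT (0.33, SE 0.21). Without KO a, the library with the raised low-oxygen genes, the difference was 0.18 for Bmpr1b and 0.08 for Bmpr2. Among the 10 receptors 9 differences were above 0, from -0.01 (Tgfbr2) to 0.37, with a median of 0.12, and Bmpr1a (0.12), Tgfbr1 (0.07), Acvr1 (0.02) and Acvr1b (0.01) were small in size. Acvr2b, a type II activin receptor, changed most among the receptors with the libraries used, between 0.15 and 0.71 as each was left out, and WT a (24.6 CPM) was above all KO libraries (20.2, 19.2 and 24.2 CPM) while WT b and c (13.4 and 12.5 CPM) were below them.

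Among the 7 Smads, Smad7, the inhibitory Smad of both branches, was at 38.75, 19.0 and 26.6 CPM in KO and 20.1, 20.3 and 26.4 CPM in WT (0.32, SE 0.26). KO a was the highest and KO b the lowest of the 6 libraries, and without KO a the difference was 0.03. Smad2, which carries activin and TGF-beta signals, was the only gene of the 37 whose groups did not overlap. It stood at 78.5, 74.68 and 80.5 CPM in KO and 74.59, 71.4 and 64.2 CPM in WT, so the groups were parted by the small step from KO b to WT a. The log2 difference was 0.15 (SE 0.13), and 1 gene of 37 (2.7%) compares with 5.67% of all genes in either direction and 3.01% higher in KO. The remaining Smads lay between -0.05 (Smad1) and 0.12 (Smad4).

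The Id genes, inhibitors of basic helix-loop-helix factors, stand in the list as targets of BMP signalling. Id1 was at 56.1, 73.0 and 56.55 CPM in KO and 58.25, 88.7 and 76.65 CPM in WT, averaging 61.9 ± 9.64 in KO and 74.5 ± 15.3 in WT (SD, n = 3 each). KO a and c were below every WT library, KO b was above WT a, and the difference did not pass the test (-0.27, SE 0.18). Id4 was at 24.1, 31.2 and 31.2 CPM in KO and 25.8, 27.0 and 27.2 CPM in WT (0.11, SE 0.17). Id2 and Id3 had differences of -0.04 and -0.05.

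**Figure D2:**
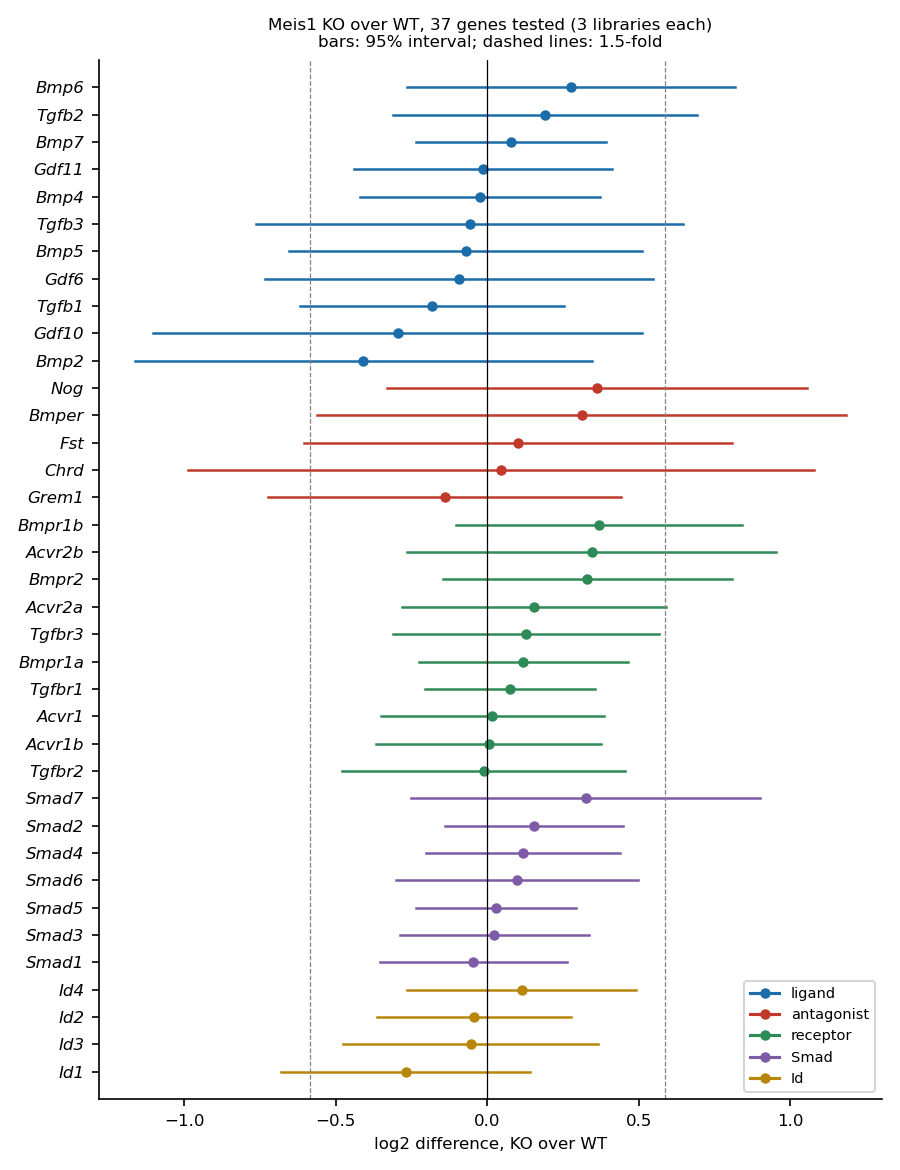
Log2 difference of KO over WT for the 37 genes tested in the Meis1 comparison, grouped by role; points are edgeR estimates and bars 95% intervals from 3 libraries each, and the dashed lines mark 1.5-fold. Each of the 37 bars crosses 0, and 18 of them stay between the dashed lines.

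The libraries of a genotype differed among themselves by more than counting error for most of these genes. The SD between libraries of 1 genotype, on the log2 scale, exceeded the SD that counting alone gives in 33 of 37 genes (89.2%), against 87.7% of all genes tested, and the medians were 0.26 for these genes and 0.25 for all. Spread differed by role, as did counting error. Antagonists had a median SD of 0.42, ligands 0.28, receptors 0.25, Id genes 0.21 and Smads 0.14, where counting alone would give 0.25, 0.13, 0.12, 0.07 and 0.08 in that order. Smad5, the BMP-side effector, was the steadiest: it was at 179.9, 179.5 and 175.8 CPM in KO and 171.0, 175.2 and 178.1 CPM in WT, an SD of 0.02 on the log2 scale. Smad1, its partner, followed at 0.08. The widest were Chrd (0.74), Gdf10 (0.68), Bmper (0.59) and Tgfb3 (0.52).

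**Figure D3:**
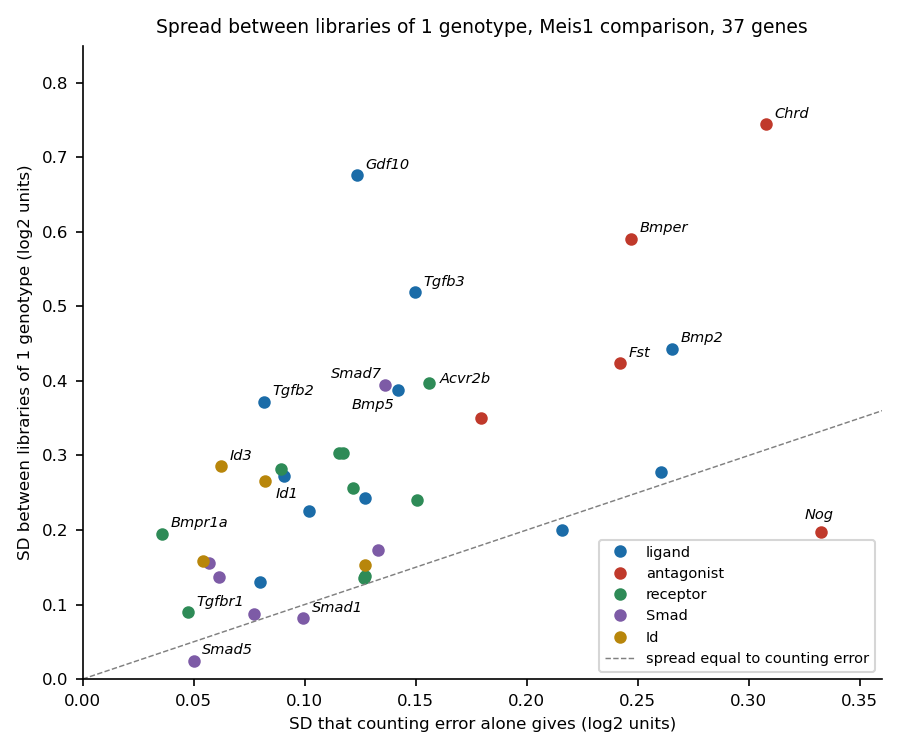
SD between libraries of 1 genotype (vertical) against the SD that counting error alone gives (horizontal), both in log2 units, for the 37 genes tested; each point is 1 gene, coloured by role, and the dashed line marks equality. Chrd, Gdf10, Bmper and Tgfb3 lie far above the line, while Smad5, Smad1, Bmp6 and Nog lie under it.

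These 4 wide genes shared a pattern, picked out after their values were seen. Gdf10, an inhibitory ligand also called BMP3b, was at 21.45, 45.15 and 27.2 CPM in KO and 18.9, 53.4 and 42.7 CPM in WT. Tgfb3, a ligand of palate fusion, was at 14.9, 29.5 and 19.4 CPM in KO and 15.15, 31.8 and 19.7 CPM in WT. Chrd was at 2.925, 7.595 and 6.40 CPM in KO and 4.03, 9.30 and 3.36 CPM in WT. In each of them, as in Bmper, library b passed library a by over 1.5-fold in both genotypes. That held for 4 of 37 genes (10.8%), against 3.72% of all genes, and the reverse held for 0 of 37, against 2.63%. Since the pattern was picked from the values of these same 4 genes, the shares are no test of it. Letters follow library size, so no label links KO b with WT b or KO a with WT a. The summed level of 9 limb mesenchyme genes was also higher in b than in a (550.6 CPM in KO b and 492.4 in KO a, 552.7 in WT b and 452.3 in WT a), as was that of 8 macrophage genes (92.6 CPM in KO b and 72.4 in KO a, 154.7 in WT b and 68.2 in WT a). The neuron list was also higher in b, as was the liver and yolk sac list, by little in KO (144.9 CPM in KO b, 141.1 in KO a). The red cell and low-oxygen lists were lower in b, as was the heart muscle list, by little in KO (985.2 CPM in KO b, 992.5 in KO a). The remaining lists, neural tube and endothelium, went opposite ways by genotype. Neural tube was at 966.6 CPM in KO b and 434.8 in KO a, but 829 in WT b and 917.8 in WT a. Endothelium was at 463.5 CPM in KO b and 443.8 in KO a, but 407.4 in WT b and 429.3 in WT a. The red cell list held 4 of its 6 genes, since Hbb-bh1 and Hba-x were among the genes whose counts could not be worked back. The part of these lists in the pattern was not tested.

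KO a was the highest of the 6 libraries in 14 of 37 genes (37.8%), against 26.4% of all genes, and the lowest in 7 (18.9%), against 26.0%. Bmpr1b, Bmpr2, Smad7 and the co-receptor Tgfbr3 were among the 14, and Chrd, Id1, Id3, Id4, Tgfb1, Tgfb3 and Acvr1b were the 7. Its low-oxygen genes have been given above, and its summed level of neural tube genes was 434.8 CPM, against 966.6 and 856.9 in KO b and c and 699.5 to 917.8 in WT. Their part in the receptor and Smad7 values was not tested.

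**Figure D4:**
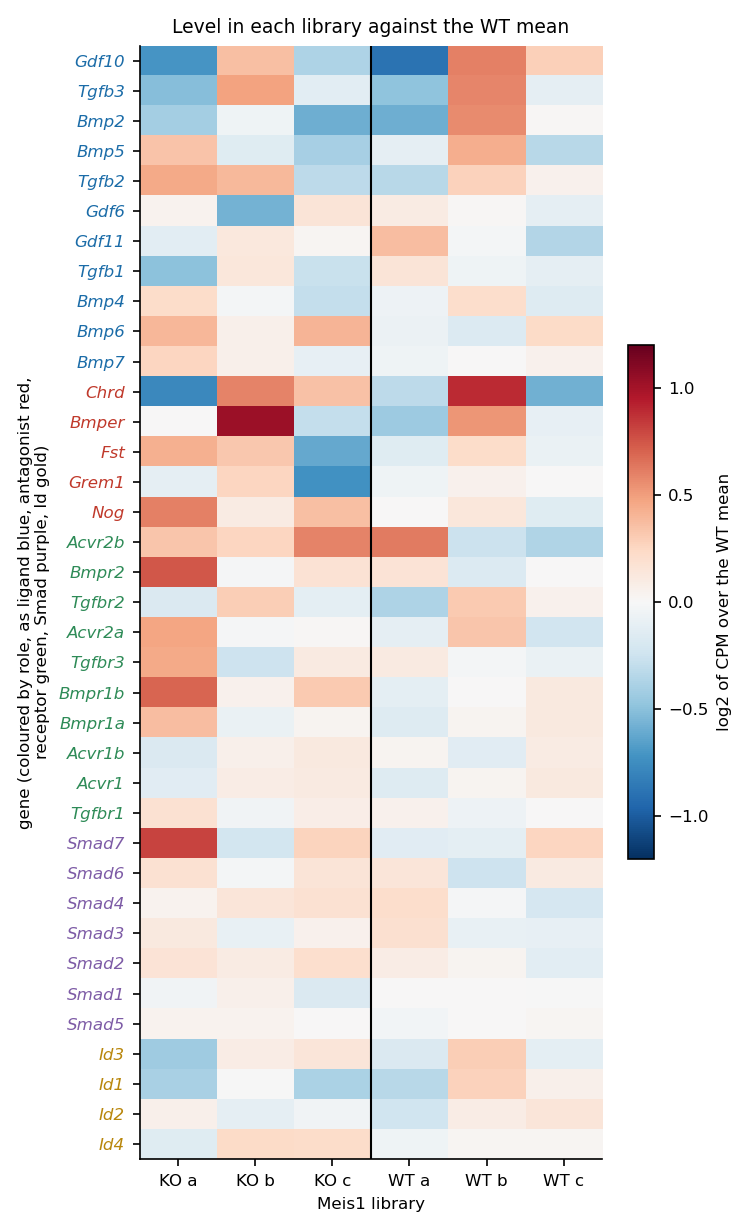
Log2 of the level in each Meis1 library over the mean of the WT libraries, for the 37 genes tested; columns are the KO and WT libraries a, b and c, rows are genes by role and then by spread, red is above the WT mean and blue below. Column KO a is red for Smad7, Bmpr2 and Bmpr1b, and columns KO b and WT b are both red for Gdf10, Tgfb3, Chrd and Bmper.

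The Prep1 hypomorph was compared with its WT in 1 library each, with no replicate check, so ratios carry counting intervals only. In 37 genes the library with more reads had 20 counts or more, and of these 4 (10.8%) differed by more than 1.5-fold, against 9.27% of 13780 genes, and 1 (2.7%) by more than 2-fold, against 2.47%. Higher were 3 (8.11%, against 6.51%), and lower was 1 (2.7%, against 2.76%). Between libraries of the same genotype in the Meis1 set, 12.0%, 18.5% and 25.5% of genes (KO pairs) and 10.8%, 11.1% and 20.7% (WT pairs) passed the same 1.5-fold rule. Of the members alone, 18.9%, 13.5% and 24.3% (KO pairs) and 10.8%, 8.11% and 25.0% (WT pairs) passed it, in the same order of pairs.

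Gdf10 had the largest ratio of the 37. On mm9 it lies at chr14:34736773-34749700, and it had 283 counts in the hypomorph and 92 in WT, or 47.6 CPM in the hypomorph and 23.2 CPM in WT (log2 ratio 1.03, 95% exact interval 0.70 to 1.40). The highest Meis1 WT library exceeded the lowest by 2.82-fold for this gene, a wider span than the Prep1 ratio. Tgfbr2, the type II TGF-beta receptor (mm9 chr9:115993415-116084383), had 252 counts in the hypomorph and 107 in WT, or 42.4 CPM in the hypomorph and 27.0 CPM in WT (0.65, 0.32 to 0.99). In the Meis1 set it was at 30.0, 41.6 and 31.2 CPM in KO and 26.3, 42.2 and 35.04 CPM in WT, a WT span of 26.3 to 42.2 CPM. Each table was scaled by itself, so levels are set side by side across them only loosely.

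The other pair rested on few reads. Nog had 30 counts in the hypomorph and 12 in WT (0.67, -0.27 to 1.84), and Bmp6 had 39 in the hypomorph and 41 in WT (-0.62, -1.32 to 0.01). Both intervals held 0. Nog reached 20 counts through the hypomorph alone, and so did Bmp2, which was within 1.5-fold. The 3 genes under the count minimum were Gdf5 (18 counts in the hypomorph, 5 in WT), Inhba (19 in the hypomorph, 5 in WT) and Inhbb (8 in the hypomorph, 3 in WT).

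The counting interval lay above equality for 6 of 37 genes (16.2%), against 11.9% of all genes, and below it for 4 (10.8%), against 13.1%. Besides Gdf10 and Tgfbr2, those above were Tgfb3 (165 counts in the hypomorph, 79 in WT, ratio 0.47), Tgfb2 (446 in the hypomorph, 218 in WT, 0.45), the type I receptor Acvr1 (202 in the hypomorph, 104 in WT, 0.37) and Smad1 (323 in the hypomorph, 174 in WT, 0.31). Those below were Acvr2b (193 in the hypomorph, 165 in WT, -0.35), Gdf11, a regulator of axial identity (394 in the hypomorph, 317 in WT, -0.27), Id3 (537 in the hypomorph, 418 in WT, -0.22) and Id2 (594 in the hypomorph, 460 in WT, -0.21). The intervals of the ligand Tgfb1 (0.11, -0.23 to 0.45) and the co-receptor Tgfbr3 (0.22, -0.11 to 0.57) held 0. Tgfb2 was at 75.1 CPM in the hypomorph and 54.9 CPM in WT, and ran from 50.4 to 77.2 CPM in the Meis1 WT libraries. Tgfb3 was at 27.8 CPM in the hypomorph and 19.9 CPM in WT, and ran there from 15.15 to 31.8 CPM. The Prep1 levels of both genes thus lay within their Meis1 WT spans. Among the narrowest intervals were those of the abundant Bmpr1a, with 1724 counts in the hypomorph and 1143 in WT (0.01, -0.10 to 0.12), and of Tgfbr1, with 1252 in the hypomorph and 865 in WT (-0.05, -0.17 to 0.08).

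By role, the median log2 ratio was 0.40 for the antagonists, 0.09 for receptors, 0.06 for Smads, 0.04 for ligands and -0.10 for the Id genes. Over all 37 genes it was 0.06, against 0.003 for all genes, and 27 of 37 (73.0%) were above 0, against 50.4%. Marker lists also differed between these libraries. The summed level of 7 liver and yolk sac genes was 460.8 CPM in the hypomorph and 165.8 CPM in WT, and that of 7 heart muscle genes was 464.0 CPM in the hypomorph and 678.2 CPM in WT. The part of such differences in the ratios was not tested.

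**Figure D5:**
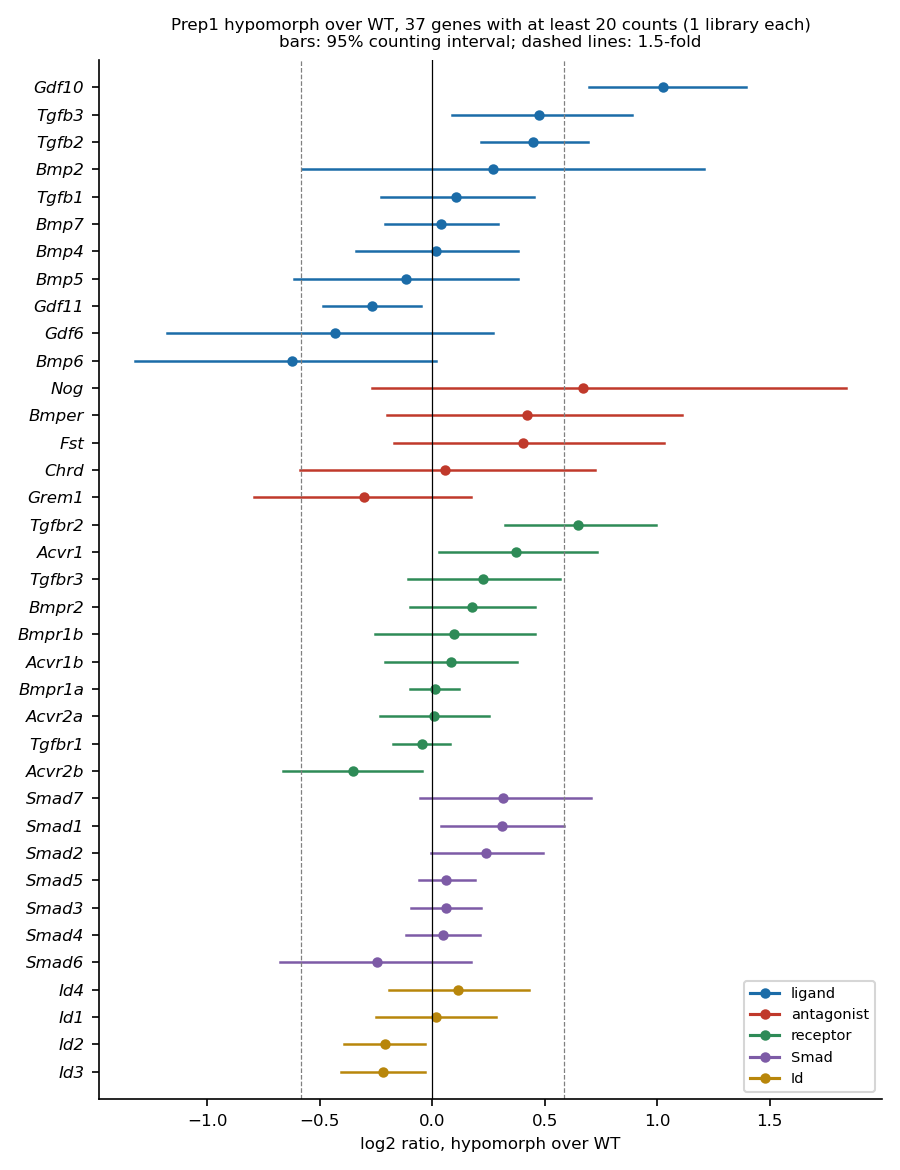
Log2 ratio of the Prep1 hypomorph over WT for the 37 genes that reached 20 counts in either library, by role; points are ratios of TMM-scaled CPM, bars are 95% exact counting intervals with 1 library each, and the dashed lines mark 1.5-fold. Gdf10 and Tgfbr2 are the points beyond the right line whose bars exclude 0.

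The Meis1 and Prep1 comparisons share no library, and 25 of 37 genes (67.6%) had the same sign in both, against 53.1% of 13562 genes. Many of these signs were unsure: 22 of the 37 Meis1 signs changed under at least 1 other setting. The Prep1 counting interval lay above equality for only 6 genes and below it for 4. The 37 genes also leaned above 0 in both comparisons (62.2% for Meis1, 73.0% for Prep1), and the part of this in the shared sign was not tested. By role, the sign was the same for 5 of 5 antagonists, 7 of 10 receptors, 5 of 7 Smads, 3 of 4 Id genes and 5 of 11 ligands. For the antagonists, however, every Prep1 counting interval included equality. The Meis1 signs of Chrd, Fst, Grem1 and Bmper also changed when a library was left out. Nog had a log2 value of 0.36 for the Meis1 KO and 0.67 for the Prep1 hypomorph, and Bmper 0.31 for the Meis1 KO and 0.42 for the Prep1 hypomorph. Gdf10, first among the Prep1 ratios, was at -0.30 for the Meis1 KO (SE 0.36). Id1 was at -0.27 for the Meis1 KO and 0.02 for the Prep1 hypomorph. No Meis1 value of these passed the test.

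Other genes of the pathway came from a list of 70, of which 63 were in the Meis1 table and 51 were tested. Of these 0 were called by edgeR at an FDR of 0.05, 0 had an unadjusted p under 0.05, 24 were above 0 and 27 below, and the median log2 difference was -0.01. The smallest p belonged to Msx1, a homeobox target of BMPs, with 79.3 ± 3.75 CPM in KO and 97.1 ± 9.12 CPM in WT (SD, n = 3 each; -0.29, SE 0.13). Msx1 was the only 1 of the 51 whose groups did not overlap, against 5.67% of all genes in either direction and 2.67% lower in KO. Next came Rgmb, a BMP co-receptor (0.29), Bmp3 (0.80), Inha, the inhibin subunit (-0.62), Fstl3, an activin-binding protein (0.76), and Acvrl1, an endothelial type I receptor (0.29). Ltbp2, which had few reads and fell under the filter, was not tested, and its groups did not overlap either. It was at 1.46, 1.69 and 1.45 CPM in KO and 0.24, 0.22 and 0.16 CPM in WT. The shares of all genes given for Msx1 cover tested genes only. No share was worked out for genes under the filter, so there is none to set beside Ltbp2. In the Prep1 libraries 48 of the list reached 20 counts, of which 8 (16.7%, against 6.51% of all genes) were higher and 1 (2.08%, against 2.76%) lower by over 1.5-fold. Of the 8, Htra1, Tmeff2, Smad9 and Tll1 reached the minimum through the hypomorph alone, which favours a higher value there for these 4. The largest were Htra1, a secreted protease (50 counts in the hypomorph, 8 in WT, 1.87), Tmeff2 (60 in the hypomorph, 18 in WT, 1.09), the latent TGF-beta binding protein Ltbp3 (163 in the hypomorph, 57 in WT, 0.92), the antagonist Nbl1 (176 in the hypomorph, 67 in WT, 0.80), Bmp8b (23 in the hypomorph, 27 in WT, -0.75) and Smad9 (44 in the hypomorph, 17 in WT, 0.74). The counting intervals of Bmp8b (-1.68 to 0.04) and Smad9 (-0.05 to 1.69) held 0, while those of Htra1, Tmeff2, Ltbp3 and Nbl1 lay above it. In the Meis1 WT libraries Htra1 ran from 7.10 to 19.25 CPM and Tmeff2 from 3.79 to 8.44 CPM. Ltbp3 ran there from 11.6 to 26.8 CPM and Nbl1 from 14.9 to 45.9 CPM. The median ratio of the 48 was 0.14.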

How the data were processed

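Libraries of whole-embryo mRNA were single-end, 68 bases long, and expression was estimated with RSEM, per the labels' protocols. The submitters' processing notes name RSEM and genome build mm9, and the RSEM version, annotation and strand use are unstated (not given in the sources used here). Per the file headers, the Meis1 table is a signal deposited by the authors, namely counts divided by size factors and averaged over each group, with the authors' log2 ratio and p-value, and a ratio of residual to fitted variance. The Prep1 table was deposited by the authors as whole expected counts, with a count of 0 written as 0.1 and restored to 0 here, and its deposited log2 ratio is not scaled for library size.

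Group means stood where the plan had assumed a count table for Meis1. A mean here adds 3 whole counts, each over a size factor, and is printed to 15 digits, which left 1 answer for 18893 (KO) and 18896 (WT) of 18904 genes. A tolerance 5 times wider was brought in after 152 WT genes had no answer at the narrower one. The deposited variance ratios settled 2 more KO genes, and 10 genes, no member among them, were left out. The variance ratios, not used for the other genes, gave a fitted variance whose Spearman correlation with the mean was 0.9995 in KO and in WT, and 0.8244 (KO) and 0.8165 (WT) when shuffled. Chi-square per gene between libraries was at least 5.959 within a genotype and 2.856 over all pairs (KO c with WT a), so no pair agreed within sampling noise.

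edgeR 4.0.16 in R 4.3.3 was fitted to all genes past filterByExpr, with TMM scaling, the quasi-likelihood test and Benjamini-Hochberg adjustment over 14438 genes. limma 3.58.1 (voom), DESeq2 1.42.0 and sva 3.50.0 served as alternatives, and scripts were tested on simulated data. Prep1 ratios compare TMM-scaled CPM (prior count 2) of genes that reached 20 counts in either library, and exact 95% intervals cover counting error only. Such a minimum can be met through 1 library alone.

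Members and gene lists were chosen with earlier results of these data known. Genes given per library are the 2 with the smallest p in each role, those whose Meis1 groups did not overlap and those past 1.5-fold in Prep1. Of the pathway list, the 6 with the smallest p and the 6 largest Prep1 ratios are named. Levels per length, spread against counting error, patterns over libraries, interval counts, motifs and the other members given by value were chosen after values were seen.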

Additional observations from a re-analysis of the deposited data

How the results depend on the processing

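No paired analysis was possible because the recovered libraries carry no replicate numbers and no link to a labelled sample. In the Meis1 comparison 0 of 37 genes passed the FDR under DESeq2's scaling and test, limma-voom, no filter, 2 surrogate variables (sva), the authors' deposited table and each library left out. The count at an unadjusted p under 0.05 was 1 of 37 with surrogate variables (Acvr2b), against 5.11% of all genes, and 0 to 2 of 37 with a library left out: Bmpr1b and Smad7 without KO b, against 3.66%, and Acvr2b and Id1 without WT a, against 2.97%. The median log2 difference, 0.046, ran from 0.023 to 0.108 with a library left out, the highest without WT b. These leave-one-out counts and medians keep to the 37 genes of the main test, a limit set after values were seen. The sign held for 15 of the 37 genes and changed for 22, whose differences were at most 0.31 in size. With surrogate variables these were Tgfb3 (0.11), Id3 (0.074), Gdf11 (0.086), Tgfbr2 (0.05), Fst (-0.028), Bmpr1a (-0.007) and Tgfbr3 (-0.02), with limma-voom Gdf11 (0.026) and without a filter Acvr1b (-0.003). With a library left out the signs that changed ranged as Gdf10 -0.66 to 0.007, Grem1 -0.40 to 0.086, Gdf6 -0.24 to 0.097, Bmp5 -0.30 to 0.18, Tgfb3 -0.37 to 0.28, Id3 -0.16 to 0.11, Smad1 -0.11 to 0.012, Id2 -0.15 to 0.026, Bmp4 -0.16 to 0.097, Gdf11 -0.18 to 0.19, Tgfbr2 -0.18 to 0.15, Acvr1b -0.058 to 0.087, Acvr1 -0.053 to 0.089, Smad3 -0.033 to 0.12, Chrd -0.24 to 0.63, Bmp7 -0.016 to 0.16, Smad6 -0.016 to 0.17, Fst -0.082 to 0.37, Bmpr1a -0.025 to 0.21, Tgfbr3 -0.057 to 0.29, Acvr2a -0.016 to 0.34 and Bmper -0.19 to 0.61. In the Prep1 comparison the 4 genes past 1.5-fold became 27 with the authors' deposited ratio, which is not scaled for library size, and the median of 0.063 became 0.644. The count was 7 with no count minimum, 2 with a minimum of 50 and 1 at 2-fold, and was 4 under library totals and a prior count of 0.5. Counting error was largest for the antagonists among the roles, and with 1 library a genotype the Prep1 ratios have no biological error.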
